A study of Mus musculus with 8 samples.

Results

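The genes described here are 8 genes that are mutated, lost or expressed at altered levels in tumors of the pituitary corticotrophs, the cells that secrete ACTH. They are *Usp8*, *Usp48*, *Egfr*, *Braf*, *Men1*, *Cables1*, *Pttg1* and *Bmp4*. Their probes were found through the RefSeq accession that the array design gives for each probe, which put 17 of 39429 probes in the group, and the 8 genes stand among 19751 genes that could be named on the array. Expression was measured in AtT20 cells, a mouse corticotroph tumor line, on 1-color Agilent arrays with 1 array per sample. The control group held 4 samples kept without agonist for 48 hr, and the treated group held 4 samples kept for 48 hr with 10 μM HX630, an agonist of all retinoid X receptor (RXR) types. Both groups were in medium with stripped serum at low concentration and no transgene or gene deletion is named for either. The comparison asks whether HX630 changed the mRNA of genes implicated in the formation of such tumors. AtT20 is a single established line, and the labels do not say whether the samples of a group were separate cultures, so p-values measure the spread between these samples, which may be technical.

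USP8 is a deubiquitinase that takes ubiquitin off the epidermal growth factor receptor (EGFR) on endosomes and so spares the receptor from lysosomal degradation, and tumors of patients with Cushing's disease often carry USP8 mutations at its binding site for 14-3-3 proteins. USP48, another deubiquitinase, and the kinase BRAF, which passes signals from RAS to MEK and ERK, are mutated in some tumors without a USP8 mutation. Menin, the product of *Men1*, is a scaffold of histone methyltransferase complexes and is lost in multiple endocrine neoplasia, CABLES1 restrains the cell cycle through cyclin-dependent kinases, securin, the product of *Pttg1*, holds separase inactive until anaphase and is overexpressed in many pituitary tumors, and BMP4 is a secreted ligand that restrains corticotroph growth and *Pomc* transcription.

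An agonist-bound RXR pairs with other nuclear receptors on DNA elements built from the letters AGGTCA, so the bases before the start of the driver genes are shown for a gene of receptor trafficking, a kinase gene and the securin gene. In the RefSeq table of mouse assembly GRCm38.p6, windows of 7 of the 8 genes were searched, 9 windows of 300 bases in all. The sequence of *Cables1* was left out of the search and is not reported here. The 250 bases before the start follow, 5′ to 3′ on the strand of the gene, with capitals for GGGCGG (a GC box) or TGACGTCA (a cyclic AMP response element) read on either strand.
Usp8 (chr2:126707078-126707327, + strand): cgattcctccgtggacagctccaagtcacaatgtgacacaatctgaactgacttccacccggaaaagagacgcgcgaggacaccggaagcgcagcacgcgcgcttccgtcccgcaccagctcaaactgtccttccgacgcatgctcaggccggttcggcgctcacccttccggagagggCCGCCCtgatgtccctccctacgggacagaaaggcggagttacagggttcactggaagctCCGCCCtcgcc
Braf (chr6:39725464-39725713, - strand): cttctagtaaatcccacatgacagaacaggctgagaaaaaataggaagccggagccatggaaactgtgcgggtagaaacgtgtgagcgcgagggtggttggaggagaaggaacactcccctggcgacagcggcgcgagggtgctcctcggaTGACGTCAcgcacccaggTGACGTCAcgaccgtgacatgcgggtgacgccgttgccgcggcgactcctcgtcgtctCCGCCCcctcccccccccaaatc
Pttg1 (chr11:43425982-43426231, - strand): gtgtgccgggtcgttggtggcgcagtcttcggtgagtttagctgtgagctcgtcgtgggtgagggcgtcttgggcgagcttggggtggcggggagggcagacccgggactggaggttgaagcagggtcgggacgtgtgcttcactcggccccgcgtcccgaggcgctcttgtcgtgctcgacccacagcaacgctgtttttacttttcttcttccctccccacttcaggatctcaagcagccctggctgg
The letters AGGTCA, searched on both strands, were in 0 of the 9 windows, and 16.3% of all 32851 windows of the table held them. GGGCGG was in 7 of the 9 windows, belonging to 5 genes, against 35.7% of all windows. The windows of *Men1* overlap and hold the same site, at 96, 130 and 156 bases before their starts, so it was counted more than once. *Usp8* carried it at 71 and 11 bases before the start. TGACGTCA stood in the window of *Braf* alone among the driver genes searched, at 99 and 81 bases before the start, and 1.79% of all windows held it. The sequence printed for *Pttg1* held none of the 3 motifs. These matches describe the letters of the windows and do not show binding.

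The arrays of a group correlated closely. The precision weights that limma gave them ran from 0.299 for control replicate 1 to 2.62 for HX630 replicate 2. The 75th percentile of the processed signal was 1335 to 1863 on control arrays and 1803 to 1899 on HX630 arrays, and 69.7% to 73.5% of probes were well above background. Pearson correlations across probes were 0.994 to 0.998 within a group and 0.978 to 0.984 between groups. All control arrays lay on 1 slide with 1 scan and all HX630 arrays on another, so the treatment cannot be told apart from slide or scan. The cell label held, since all 7 corticotroph markers, *Pomc* among them, were well above background on all 8 arrays. Their summed signal, in multiples of the array's 75th percentile, was 526 to 660 in control and 406 to 430 with HX630. At a limma adjusted p below 0.01, 2 were higher and 5 lower, against 24% and 27.2% of all genes tested. *Pcsk1* fell by 2.06 on the log2 scale, and *Crhr1* and *Neurod1* rose by 1.11 and 0.72. Of 7 markers of other pituitary cells, *Gh* and *Lhb* were above background on all arrays, *Pou1f1* and *Fshb* on some, and *Prl*, *Tshb* and *Cga* on none. *Gh* fell by 0.79 (adjusted p = 6.06e-04), and the sum of the 7 was 0.145 to 0.270 in control and 0.174 to 0.199 with HX630. For 5 fibroblast markers the sum was 0.101 to 0.127 and 0.111 to 0.160. Of these *Dcn*, *Col1a2* and *Col3a1* were above background on all arrays, *Col1a1* on some and *Pdgfra* on none, and *Dcn* rose by 1.04 (adjusted p = 0.00708). The part of these shifts in the values below was not tested. Over all probes, 2130 were called up and 3183 down, a call being a limma adjusted p under 0.01 with a change of over 1.5-fold, so 40.1% of calls were up. That share was 51.6% when arrays were scaled to their median and 68.3% when they were scaled to spike-in probes. In such bulk samples fewer cells of a type and less RNA per cell cannot be told apart.

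HX630 changed no driver gene by the criteria used here. All 8 genes had at least 1 probe well above background on 4 or more arrays, and 14 of the 17 probes were tested among 28552. By limma 0 of the 14 probes were called, where 18.6% of all tested probes were called. By gene, with the brightest tested probe standing for the gene, 0 of 8 were called and 19.5% of 15319 tested genes were. The methods' t-test also called 0 of the 8 genes, with its p unadjusted or adjusted. At an unadjusted p below 0.05 limma picked 6 of the 14 probes, against 63.1% of all tested probes. It picked 2 of the 8 genes, *Braf* and *Men1*, against 10412 of 15319 genes tested. The fitted change was upward in 6 genes and downward in 2, *Egfr* and *Bmp4*, with a median log2 fold change of 0.09 against -0.035 over all genes tested. The size of the change was below that of the median gene for 7 of the 8, *Bmp4* being the exception.

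Under the main scaling and background correction, the intervals were narrow enough to bound the changes of most driver probes. The 95% interval of the fold change lay wholly within 1.5 in either direction for 13 of the 14 probes and for 7 of the 8 genes, and 58.6% of all tested probes had such an interval. *Bmp4* was the exception, with a lower limit of 0.656-fold. The interval of *Usp8* ended just inside, at 1.49-fold. At an adjusted p below 0.01 and with no threshold on the fold, 1 probe was higher with HX630, the second of *Pttg1*, and 1 was lower, the third of *Usp48*. Over all tested probes, 20.2% were higher and 25.4% lower by the same rule. The groups did not overlap for 3 of the 14 probes, these and the first of *Men1*, against 55.7% of all tested probes. The intervals above do not cover the choice of scaling or background correction, or any effect of slide or scan. Under spike-in scaling the log2 fold change was 0.39 for *Usp8*, 0.52 for the second probe of *Pttg1* and -0.08 for *Bmp4*. After another background correction (normexp) these values were -0.01, 0.20 and -0.49. Intervals for these settings are not given, so the bound was not tested under them.

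**Figure D1:**
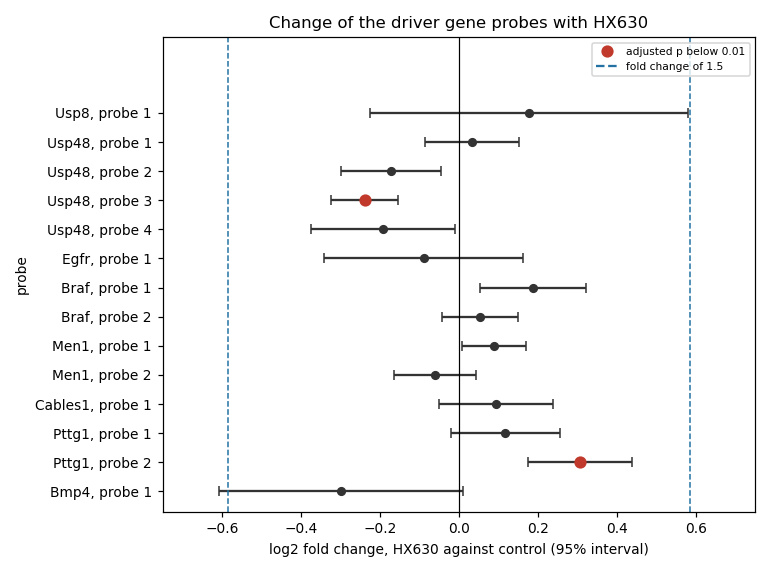
Log2 fold change of the 14 tested driver gene probes, HX630 against control, with 95% intervals from limma (4 arrays per group); dashed lines mark a fold change of 1.5 and red points an adjusted p below 0.01. Every point lies between the dashed lines, and the interval of *Bmp4* alone crosses one of them.

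*Usp8* was a dim gene on these arrays, with 1 probe and a processed signal of 72.6 to 185. Levels are given below on the log2 scale relative to the 75th percentile of each array, which stands at 0, and they are not set against each other between probes. Its level was -4.20, -4.02, -3.75 and -3.53 in the control samples and -3.86, -3.90, -3.67 and -3.36 with HX630. The groups overlapped, and the spread within each was larger than the difference between the means of -3.88 ± 0.293 and -3.70 ± 0.249 (SD, n = 4 each). The log2 fold change was 0.18 with a standard error (SE) of 0.17 (limma adjusted p = 0.409), and it was -0.010 after another background correction (normexp) and -0.017 with array weights. Without control replicate 1 it was 0.069, and without HX630 replicate 4 it was 0.063. Among 14 listed genes of USP8 partners and endosomal sorting, 0 were called, against 19.5% of all genes tested. At an adjusted p below 0.01 and any fold, 3 were higher and 1 lower. The corresponding shares of all genes tested were 24% and 27.2%. *Hgs*, whose product sorts ubiquitinated receptors on endosomes, had a log2 fold change of 0.10 (adjusted p = 0.0238). *Stam*, which encodes a binding partner of both HGS and USP8, had -0.13 on its brightest probe (adjusted p = 0.0880) and -0.45 on the other (adjusted p = 1.47e-04), and the difference between these probes was not tested.

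*Usp48* was read by 4 probes with the same accession, with fitted log2 fold changes from -0.24 to 0.03. On the brightest the level was 1.24, 1.04, 1.17 and 1.23 in control and 1.22, 1.21, 1.16 and 1.23 with HX630. These values overlap fully, with a log2 fold change of 0.03 (SE 0.051, adjusted p = 0.603). The change turned to -0.03 after normexp, to -0.01 without control replicate 2 and to -0.14 (limma adjusted p = 0.0401) when the 4 probes were averaged. On the third probe the level was 0.16, 0.16, 0.27 and 0.22 in control and -0.01, -0.06, -0.05 and -0.04 with HX630. Every HX630 sample was below every control sample, by at least 0.165. The mean went from 0.20 ± 0.053 to -0.04 ± 0.021, which is 84.7% of control (log2 fold change -0.24, SE 0.037, limma adjusted p = 8.34e-04). This fall was -0.15 with an adjusted p of 0.0552 under median scaling and -0.02 with an adjusted p of 0.792 under spike-in scaling. The remaining probes gave 88.8% (adjusted p = 0.0266) and 87.6% of control (adjusted p = 0.0674), and their direction turned under spike-in scaling. Whether the probes of *Usp48* differed from each other was not tested.

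USP48 acts on the Hedgehog effector GLI1 and on the NF-κB subunit RELA. Of 7 tested genes in the list of these pathways, 1 was called up and 1 down, where 8.38% of all genes tested were called up and 11.1% down. *Nfkbia*, which encodes the inhibitor that keeps NF-κB in the cytoplasm, rose from 3.45 to 4.36, a log2 fold change of 0.92 (SE 0.035, adjusted p = 5.39e-07). *Gli1* fell by 0.71 (SE 0.13, adjusted p = 0.00163), a call that was lost under quantile normalization (-0.58), spike-in scaling (-0.50) and normexp (-0.78).

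*Egfr* had 3 probes, of which 1 could be tested. Its processed signal was 47.9 to 82.3, and its level was -4.80, -4.46, -4.52 and -4.46 in control and -4.45, -4.59, -4.86 and -4.70 with HX630. The lowest control sample and the lowest HX630 sample were close to each other and the groups overlapped. The log2 fold change was -0.09 (SE 0.11, 95% interval -0.34 to 0.16, limma adjusted p = 0.508). Its direction turned under quantile normalization, at 0.03, and under spike-in scaling, at 0.13. Without control replicate 1 the log2 fold change was -0.17 (adjusted p = 0.161), and without HX630 replicate 3 it was -0.02 (adjusted p = 0.887). The second probe, with the same accession, had signals of 2.69 to 8.98 and the third, made for another transcript of the gene, had signals of 3.31 to 4.75. Neither exceeded background on an array, so the change above is that of the first probe alone. For the transcript of the third probe no change could be measured.

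Among ligands of EGFR and its sister receptors, 6 of 10 genes were tested, 0 were called against 19.5% of all genes tested, and 2 were lower at an adjusted p below 0.01 against 27.2%. *Hbegf*, which encodes a membrane-anchored ligand of EGFR, had a log2 fold change of -0.58 (SE 0.036), just inside the fold threshold of 0.585. *Erbb3*, the gene of a receptor that signals in pairs with EGFR or ERBB2, had -0.58 (adjusted p = 6.15e-04), and it was called, at -0.59 to -0.63, when control replicate 2 or 4 or HX630 replicate 1 or 3 was left out. *Erbb2* had -0.11 (adjusted p = 0.694), and 0.06 without control replicate 1. Of 10 tested adaptors and regulators of the receptor, 1 was called up and 3 down, against 8.38% and 11.1% of all genes tested. *Gab2* and *Shc1*, which encode adaptors of activated receptors, fell by 0.94 (adjusted p = 8.47e-05) and by 0.75 (adjusted p = 6.16e-06). *Errfi1*, which encodes an inhibitor of the EGFR kinase, fell by 0.89 (adjusted p = 2.71e-06). *Sos1*, the gene of an exchange factor for RAS, had 0.61 (adjusted p = 4.85e-04) but was well above background on 2 of 4 control arrays. It went to -0.24 after normexp and was no longer called when control replicate 1 (0.56), control replicate 2 (0.58) or HX630 replicate 2 (0.58) was left out.

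*Braf* was measured by 2 probes that both leaned upward. On the brighter the level was 1.54, 1.32, 1.46 and 1.46 in control and 1.68, 1.65, 1.53 and 1.66 with HX630. The lowest HX630 sample was just under the highest control sample, so the groups overlapped by one sample on each side. The signal was 114% of control (log2 fold change 0.19, SE 0.058, 95% interval 0.05 to 0.32), with an adjusted p of 0.0244 from limma and a two-sided exact permutation p of 0.0571. The other probe was at -1.83 to -1.76 in control and -1.84 to -1.70 with HX630 (log2 fold change 0.05, adjusted p = 0.297). *Braf* kept its direction under all alternatives that were run and passed an adjusted p of 0.01 under median scaling, spike-in scaling, normexp and array weights, each time below the fold threshold.

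In the kinase cascade that BRAF belongs to, 1 of 10 tested genes was called, upward, which is below the 19.5% of all genes tested. This was *Mapk3*, the gene of the kinase ERK1, which rose by 0.82 on the log2 scale (SE 0.041, adjusted p = 1.77e-06) and by 0.76 on its other probe. For the RAF kinase gene *Araf*, the brightest probe had -0.16 (adjusted p = 0.0143). The other *Araf* probes, made for another transcript accession, had 0.60 (adjusted p = 1.05e-05) and 0.95 (adjusted p = 0.0195), and the difference between the accessions was not tested.

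*Men1* was measured by 2 probes that pointed in opposite directions. On the first the level was 2.51, 2.55, 2.48 and 2.52 in control and 2.66, 2.57, 2.60 and 2.58 with HX630. All HX630 samples lay above all control samples, by as little as 0.024. The log2 fold change was 0.09 (SE 0.034, 95% interval 0.01 to 0.17), with a limma adjusted p of 0.0573 and an exact permutation p of 0.0286, the smallest that 4 against 4 arrays allow. On the second probe the level was 2.62, 2.58, 2.49 and 2.58 in control and 2.48, 2.44, 2.57 and 2.54 with HX630. Here the groups overlapped, with a log2 fold change of -0.06 (adjusted p = 0.281), which turned to 0.01 under quantile normalization, 0.03 under median scaling and 0.16 under spike-in scaling. Of 9 tested partners of menin, 1 was called up, against 8.38% of all genes tested, and 5 were higher and 1 lower at an adjusted p below 0.01, against 24% and 27.2%. *Dpy30*, which encodes a subunit of the methyltransferase complexes, rose by 0.65 (adjusted p = 7.00e-06). *Jund*, the gene of a transcription factor that menin binds, had -0.19 (adjusted p = 0.00315), and 0.03 under spike-in scaling. *Kmt2a* was not analysed here.

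*Cables1* was printed in 10 spots per array, which agreed to a coefficient of variation of 3.05% to 7.72% within an array. Its level was 2.07, 1.96, 1.88 and 1.90 in control and 2.18, 2.02, 1.97 and 2.01 with HX630. The highest control sample was above all HX630 samples but one. The mean went from 1.95 ± 0.083 to 2.04 ± 0.094, a log2 fold change of 0.09 (SE 0.062, 95% interval -0.05 to 0.24, limma adjusted p = 0.232). Without HX630 replicate 1 the log2 fold change was 0.05 (limma adjusted p = 0.482). Of 6 listed partners of CABLES1, 4 were higher at an adjusted p below 0.01, against 24% of all genes tested. Among these *Wee1* alone passed the fold threshold, which makes 1 of 6 called up, against 8.38% of all genes tested. *Wee1*, which encodes a kinase that puts an inhibitory phosphate on cyclin-dependent kinases, rose by 0.61 (SE 0.035, adjusted p = 3.46e-06). *Cdk5*, the gene of a kinase that CABLES1 binds, had 0.46 (adjusted p = 2.41e-05). *Cables2*, the closest relative of the driver gene, had 0.23 (adjusted p = 6.62e-04).

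*Pttg1* had 2 probes, and the dimmer one gave the largest change of any driver probe. On the brighter the level was 3.73, 3.85, 3.72 and 3.78 in control and 3.74, 3.90, 3.98 and 3.92 with HX630. HX630 replicate 1 lay within the control range and the other 3 samples above it (log2 fold change 0.12, SE 0.059, adjusted p = 0.125). On the dimmer the level was -2.33, -2.44, -2.44 and -2.27 in control and -1.97, -2.05, -2.16 and -2.07 with HX630. Every HX630 sample was above every control sample, by at least 0.117. This probe rose 1.24-fold (log2 fold change 0.31, SE 0.057, 95% interval 0.18 to 0.44, limma adjusted p = 0.00215), which is below the fold threshold, and had 0.20 with an adjusted p of 0.131 after normexp. Leaving out any 1 array kept its adjusted p below 0.01. Of 13 tested genes in the list for securin, separase and cohesin, not all of which encode these proteins, 0 were called. Of all genes tested, 19.5% were. *Espl1*, which encodes separase, had 0.27 (adjusted p = 0.00675).

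*Bmp4* was a dim gene, with 1 of 2 probes tested and signals of 31.7 to 42.3. The level was -4.99, -5.39, -5.53 and -5.32 in control and -5.44, -5.50, -5.85 and -5.63 with HX630. Control replicate 1 was the highest sample and HX630 replicate 3 the lowest, and the remaining samples of the groups overlapped. The mean was 81.3% of control (log2 fold change -0.30, SE 0.13, 95% interval -0.61 to 0.01), with a limma adjusted p of 0.0874 and an exact permutation p of 0.0857. Without control replicate 1 the log2 fold change was -0.19 (adjusted p = 0.164). It was -0.18 (adjusted p = 0.0927) under quantile normalization, -0.08 (adjusted p = 0.593) under spike-in scaling and -0.49 (adjusted p = 0.0958) after normexp. The second probe, with signals of 3.01 to 4.68, stayed at background on all arrays.

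**Figure D2:**
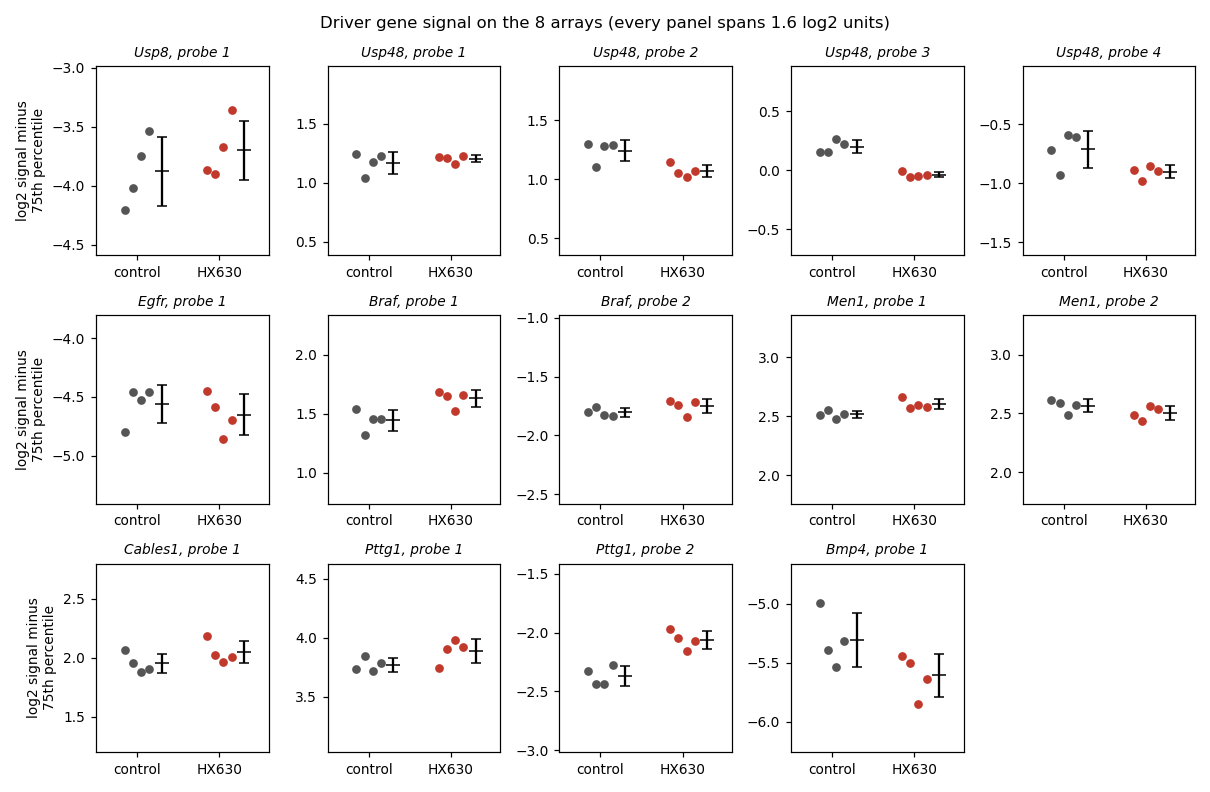
Level of each tested driver gene probe on each array (log2 scale, relative to the 75th percentile), control in grey and HX630 in red, with the mean and SD of 4 arrays beside the points. All panels span 1.6 log2 units, and the groups are apart for *Usp48* probe 3, *Men1* probe 1 and *Pttg1* probe 2 only.

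BMP4 signals through paired receptors and SMAD proteins to target genes that include the ID family. Of 16 tested genes of the pathway, 1 was called up and 2 down, a share close to the 19.5% of all genes tested that were called. *Id2*, an inhibitor of DNA binding whose gene is a direct target of BMP signals, fell from 2.51 to 0.75, a log2 fold change of -1.76 (SE 0.037, adjusted p = 7.88e-08). *Id3* fell by 0.87 (adjusted p = 5.40e-04), and *Id1* had -0.35 (adjusted p = 8.97e-04), which went to -0.14 (adjusted p = 0.181) under spike-in scaling. *Bmp7*, the gene of a sister ligand of BMP4, rose from -4.78 to -3.60, by 1.18 (SE 0.072, adjusted p = 4.88e-06). Its probe was dim, with signals of 48.9 to 157, and the rise was 0.68 (limma adjusted p = 0.00125) after normexp. The receptor genes *Bmpr1a* and *Bmpr2* had 0.02 (adjusted p = 0.712) and 0.14 (adjusted p = 0.0332).

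**Figure D3:**
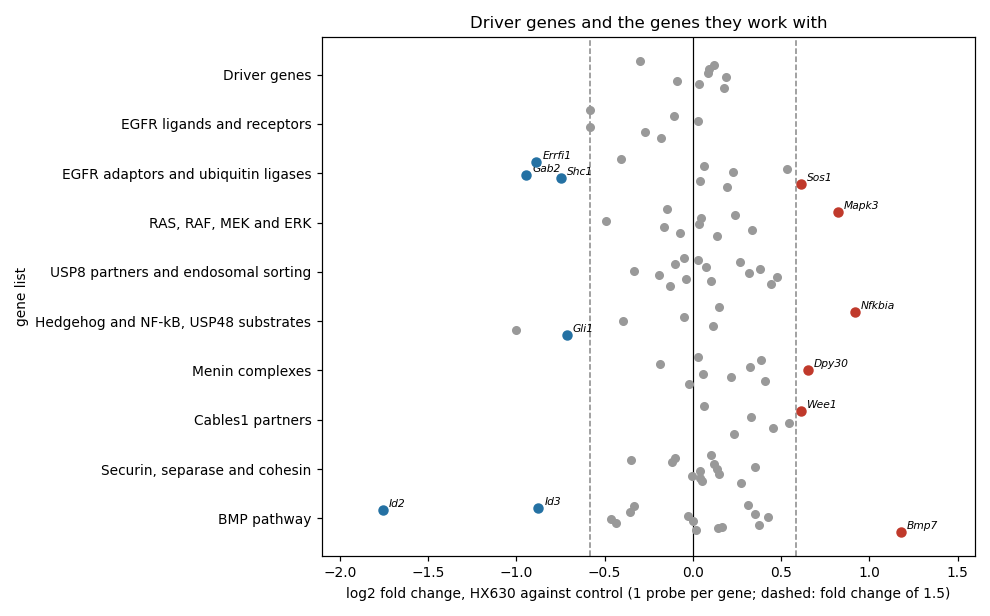
Log2 fold change with HX630 of the 8 driver genes and of 91 tested genes that work with them, 1 probe per gene, in rows by list; red and blue points were called up and down by limma, and dashed lines mark a fold change of 1.5. The driver genes all lie between the lines, and 12 of the other genes, named in the plot, were called.

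Over all 9 lists, 91 genes were tested, 6 were called up and 6 down (13.2%, against 19.5% of all genes tested), and their median log2 fold change was 0.05. With 1 probe or mean per gene, 0 driver genes were called under each of 24 alternatives. Of their other probes, *Usp48* probe 3 and *Pttg1* probe 2 were called when the threshold on the fold was dropped. Scaling to spike-in probes raised the median of all probes from -0.056 to 0.162, and the median of the driver genes with it, from 0.09 to 0.31, since this scaling moves all probes of an array alike. Under that scaling *Braf*, *Men1*, *Cables1* and *Pttg1* reached an adjusted p below 0.01, with log2 fold changes of 0.40, 0.31, 0.31 and 0.34, all below the fold threshold. *Men1* (0.16, adjusted p = 0.00382) and *Pttg1* (0.20, adjusted p = 0.00768) also did so under quantile normalization, *Cables1* (0.18, adjusted p = 0.00793) under median scaling, and *Pttg1* (0.21, adjusted p = 0.00124) when its probes were averaged.

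**Figure D4:**
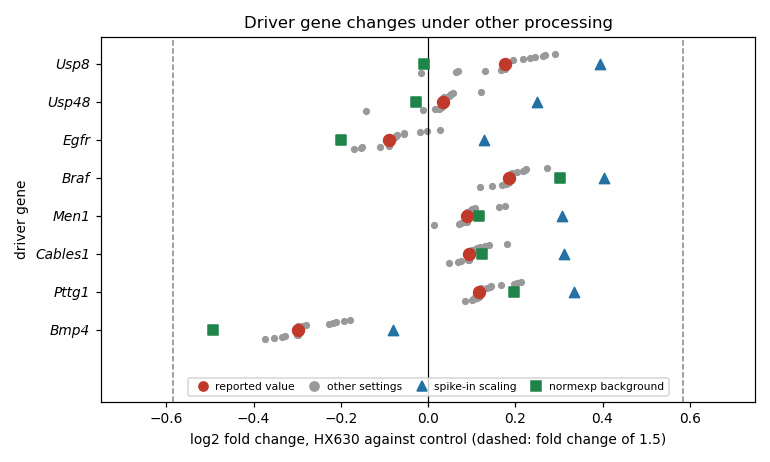
Log2 fold change of the 8 driver genes as reported (red), under spike-in scaling (blue), after normexp background correction (green) and under the other settings (grey); dashed lines mark a fold change of 1.5. No point reaches a dashed line, and *Usp8*, *Usp48* and *Egfr* have points on both sides of 0.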

How the data were processed

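Total RNA of 4 control and 4 HX630 samples was hybridised to 1-color arrays. The authors deposited, for each array, Feature Extraction 10.7.3.1 output, whose processed intensity is background-subtracted, and a table of log2 values made in GeneSpring, which held the log2 processed intensity minus the 75th percentile of each array. Here that scaling was repeated without control spots and outlier spots, spots of 1 probe were averaged, and probes well above background on at least 4 of 8 arrays were compared in R 4.3.3 with limma 3.58.1 (lmFit, eBayes, no replicate block, Benjamini-Hochberg over 28552 probes). Calls needed an adjusted p under 0.01 with over 1.5-fold change, after the thresholds of the methods, whose own t-test served as an alternative. Exact permutation tests used all 70 regroupings of the arrays. The number of arrays limits the precision. On simulated data with 200 of 28552 probes changed by 1 on the log2 scale, 74% were recovered with 0 false calls. Those changes were larger than any fitted for a driver probe (at most 0.31) and far fewer than the calls in these data. The simulation therefore does not give the sensitivity or the error rate of the comparison here.

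Probes were named by accession (26055 of 39429 matched); the array files name another genome build than the promoter table, which gave sequences only. The driver genes and the 9 lists were chosen with earlier results of these data known. Named were all driver genes with every probe, up to 3 called members of each list, and the members that stand next to a driver gene in its complex, of which 1 is not reported here. *Sos1* and *Hbegf* fall outside this rule and were named after their values were seen. Cell type markers were named besides. Alternatives changed the scaling, background correction, filters, variance model, test, threshold, probe rule and block, or left out 1 array.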

Additional observations from a re-analysis of the deposited data

Results flagged for a closer look

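In 4 of 76 groups of 4 arrays examined, 1 array stood apart from the other 3 by Dixon's ratio of its gap to the range of the group, taken at the 95% critical value. Chance gives about 1 in 20, or 3.8 here. For *Usp48* probe 2 in control the ratio was 0.881, where control replicate 2 was at 1.11 and the others averaged 1.29. Without that array the log2 fold change of the probe went from -0.17 (adjusted p = 0.0266) to -0.22 (limma adjusted p = 0.00358). Control replicate 1 was the array that stood apart for the other 3 genes, with ratios of 0.835 for *Stam*, 0.855 for *Araf* and 0.852 for *Id1*. Without it their log2 fold changes were -0.08, -0.13 and -0.39, against -0.13, -0.16 and -0.35 with all arrays.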

How the results depend on the processing

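The count of driver genes called was 0 under all 24 alternatives, and *Braf*, *Men1*, *Cables1*, *Pttg1* and *Bmp4* kept their direction under all of them. Values given are log2 fold changes unless they are counts. Quantile normalization turned *Egfr* to 0.028 and *Men1* probe 2 to 0.013, and median scaling turned *Men1* probe 2 to 0.027. Under spike-in scaling 16 genes of the lists were called up, with 4140 probes up and 1920 down over the array. It turned *Egfr* to 0.128, *Men1* probe 2 to 0.158, *Usp48* probe 2 to 0.046 and probe 4 to 0.026, *Erbb2* to 0.111, *Stam* to 0.088, *Jund* to 0.032 and *Araf* to 0.054. Normexp gave 1355 probes called up and turned *Usp8* to -0.010, *Usp48* to -0.028, *Sos1* to -0.237 and *Bmpr1a* to -0.0011. Array weights turned *Usp8* to -0.017 and *Erbb2* to 0.075. Averaging the probes of each gene turned *Usp48* to -0.142 and *Araf* to 0.465. With no threshold on the fold, 27 of the lists' genes were called up and 16 down, and 5762 and 7245 probes over the array, since this rule is looser. The call was lost for *Shc1* under spike-in scaling (-0.53), for *Dpy30* after normexp (0.55) and for *Sos1* with array weights (0.56). The cause of the other changes was not tested.

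Leaving out 1 array at a time gave -0.224 to 0.064 for *Erbb2*, -0.011 to 0.057 for *Usp48* and -0.0047 to 0.050 for *Bmpr1a*. *Erbb2* turned without control replicate 1, *Usp48* without control replicate 2 and *Bmpr1a* without control replicate 4. Samples with the same replicate number had deviations that correlated at 0.52, -0.010, 0.24 and 0.38, and since 1 of these is not above 0.1 and no label ties the samples, the numbers were not taken as pairs. Of the control arrays 2 of 4 correlated best with their own number. With the replicate number as a block, 0 driver genes, 2209 probes up and 3344 down were called. On their brightest probes *Usp8*, *Braf*, *Men1*, *Cables1*, *Pttg1* and *Bmp4* each differed in 1 direction in all 4 numbered pairs. The block took the limma adjusted p of *Usp8* from 0.409 to 0.0377, of *Cables1* from 0.232 to 0.0440 and of *Bmp4* from 0.0874 to 0.0122. For *Braf*, *Men1* and *Pttg1* it was 0.0314, 0.0842 and 0.113 with the block, and none was below 0.01. The tested probes of *Usp8*, *Egfr* and *Bmp4* were dim, though well above background on all arrays, and whether this limited their precision was not tested.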
